A study of Homo sapiens with 6 samples.

Results

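The 10 genes described here encode subunits of the phosphoinositide 3-kinases, and they were chosen by their symbols from the 63140 genes of the count table. All 10 were found, 1 line each, and all 10 passed the filter on low counts. They were measured by RNA sequencing in HEK293 cells, an established human cell line from embryonic kidney. Confluent cultures received either the solvent DMSO (3 libraries) or 100 nM GSK-A1 (3 libraries), an inhibitor of the lipid kinase PI4KA, and were collected after 24 h. The labels number the libraries as biological replicates without saying whether the cultures were grown separately, so p-values measure the spread between these libraries.

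Phosphoinositide 3-kinases add a phosphate to the 3 position of the inositol ring of membrane phosphatidylinositol lipids. Class IA enzymes are dimers of a catalytic p110 chain and a regulatory chain that holds p110 stable, restrains it, and brings it to tyrosine-phosphorylated receptors, where the dimer makes PIP3 from PI(4,5)P2. That substrate is itself made from the phosphatidylinositol 4-phosphate that PI4KA supplies at the plasma membrane. Class II enzymes work without a fixed regulatory chain and make mainly PI(3,4)P2 and PI3P, and the class III enzyme, a pair of PIK3C3 and PIK3R4, makes PI3P on endosomes and autophagosomes.

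Total counts ranged from 33040178 to 47777233 per library. CPM is a gene's counts relative to the library total, the edgeR unit, with TMM library factors. Within its group, each DMSO library had a lowest correlation of log2 CPM of 0.997. For GSK-A1 replicates 1, 2 and 3 it was 0.995, 0.994 and 0.994. The GSK-A1 replicate 2 library stood apart: its highest correlation with a DMSO library was 0.992, against 0.995 and 0.994 for GSK-A1 replicates 1 and 3. In that library tested genes with a GC content under 40% lay 0.08 above the mean of the GSK-A1 group on the log2 scale (median, pseudocount 0.5), and genes of at least 55% GC lay 0.06 below it. Of 6 genes that mark HEK293 cells, NEFL, VIM, CDH2 and PAX2 were above 1 CPM, while NEFM had 2 to 13 counts and INA at most 1. The 6 genes summed to 1866 to 1932 CPM with DMSO and 1983 to 2184 CPM with GSK-A1, nearly all of it NEFL and VIM. Among them VIM was called higher (log2 fold change 0.17; edgeR adjusted p = 0.00423) and PAX2, a kidney transcription factor, lower (-0.43; edgeR adjusted p = 0.0177), while NEFL (0.05) and CDH2 (0.04) did not pass, and the part of this in the results was not tested. In bulk RNA, fewer cells expressing a gene and less of its RNA per cell cannot be told apart. Of 10 markers of other cell types, KRT5 was at 0, and the markers summed to 0.703 to 0.879 CPM with DMSO and 0.499 to 0.633 CPM with GSK-A1.

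Among the 10 genes, 1 rose and 2 fell with GSK-A1, where 12.0% of all tested genes rose and 10.9% fell. PIK3CA, which encodes the catalytic chain p110-alpha, rose by 25.2%. PIK3R3, which encodes the short regulatory chain p55-gamma, fell by 23.7%, and PIK3C2B, a class II enzyme, fell by 24.6%. These 3 of 10 genes (30.0%) compare with 22.9% of all 16754 tested genes called (edgeR quasi-likelihood test, adjusted p under 0.05), so the share lies near the background. Over all tested genes 52.3% of the calls were higher, against 33.3% under upper-quartile library factors and 63.9% with the GC trend removed. The median log2 fold change was 0.06 over the 10 genes and -0.01 over all tested genes.

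The DNA around the start sites of the 3 called genes is printed here, since these are the members whose mRNA level differed. Each line is the RefSeq promoter window of 300 bases (build GRCh38.p14), on the strand of the gene, 5′ to 3′, running from 250 bases before the start to 50 after it. PIK3CA lies at chr3:179148107-179148406 on the plus strand, PIK3R3 at chr1:46132580-46132879 on the minus strand and PIK3C2B at chr1:204494756-204495055 on the minus strand. Capitals mark matches, on either strand, to 3 motifs: GCGNGGGCG of EGR1, CCGGAAG of ETS factors and GTAAACA of FOXO factors.
PIK3CA: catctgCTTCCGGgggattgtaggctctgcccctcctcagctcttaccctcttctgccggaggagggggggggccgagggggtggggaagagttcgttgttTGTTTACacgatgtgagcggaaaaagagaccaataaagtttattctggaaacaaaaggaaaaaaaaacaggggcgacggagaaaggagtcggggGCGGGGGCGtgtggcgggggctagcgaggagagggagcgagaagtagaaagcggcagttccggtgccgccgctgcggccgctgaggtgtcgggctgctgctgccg
PIK3R3: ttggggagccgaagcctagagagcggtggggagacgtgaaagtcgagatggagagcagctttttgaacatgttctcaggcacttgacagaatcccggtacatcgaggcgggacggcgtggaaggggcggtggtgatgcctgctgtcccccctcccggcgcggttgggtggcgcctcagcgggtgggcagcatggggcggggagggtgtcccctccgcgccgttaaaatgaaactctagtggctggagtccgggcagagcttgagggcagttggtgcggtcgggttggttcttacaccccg
PIK3C2B: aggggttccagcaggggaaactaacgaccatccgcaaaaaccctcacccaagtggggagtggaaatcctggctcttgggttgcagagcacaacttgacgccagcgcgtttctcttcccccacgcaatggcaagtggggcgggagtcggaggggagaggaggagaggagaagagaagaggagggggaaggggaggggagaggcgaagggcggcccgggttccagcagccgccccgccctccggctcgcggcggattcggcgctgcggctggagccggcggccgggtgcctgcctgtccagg
The PIK3CA window held 1 match to each motif, starting at base 7 (ETS), base 102 (FOXO) and base 196 (EGR1), counted from 1 at its 5′ end. The EGR1 match also contains the GC box letters GGGGCG, a motif of SP factors. The PIK3C2B window held none, and neither did any of the 6 PIK3R3 windows in the table, some of which overlap and of which the first listed is printed. Among 35116 promoter windows of this length, 9.43% held the EGR1 motif, 10.3% the ETS motif, 3.42% the FOXO motif and 78.5% none of the 3. Members that were not called also held matches: PIK3C3 to EGR1 and ETS, PIK3R1 to EGR1 in its first listed window, and PIK3R2 and PIK3C2A to ETS. The windows of PIK3CB, PIK3CD and PIK3R4 held none. Whether matches go with the direction of change was not tested. A match is a description of the letters and does not show that a factor binds.

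PIK3CA (ENSG00000121879; GENCODE 29 on GRCh38, chr3:179148114-179240093, plus strand) measured 23.8, 25.2 and 24.96 CPM in the DMSO libraries (replicates 1 to 3, the order used throughout), against 29.8, 33.1 and 29.8 CPM after GSK-A1. All 3 GSK-A1 libraries lay above all 3 DMSO libraries, as in 20.2% of tested genes. Groups did not overlap for 6 of the 10 subunit genes, 3 higher and 3 lower with GSK-A1, against 40.5% of tested genes in either direction and 20.4% lower. The means were 24.7 ± 0.76 and 30.9 ± 1.9 CPM (SD, n = 3), and the log2 fold change was 0.32 (SE 0.06; adjusted p = 6.30e-04, edgeR). GSK-A1 replicate 2 was the highest library, and the transcript, at 34.8% GC, belongs to the GC class that was high there. Without that library the log2 fold change was 0.28 (edgeR adjusted p = 7.18e-06), and with the GC trend removed it was 0.25 (edgeR adjusted p = 3.44e-04). KCNMB3, whose exons lie opposite 35.8% of its exonic length, had 25 to 50 counts per library.

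PIK3CB (ENSG00000051382; chr3:138652699-138834938, minus strand), the gene of p110-beta, the p110 chain that also answers to G protein-coupled receptors, stood at 31.2, 31.0 and 31.8 CPM with DMSO and at 31.7, 38.2 and 31.5 CPM with GSK-A1. Apart from GSK-A1 replicate 2 the libraries lay within 1 CPM of each other, and the groups overlapped. Its log2 fold change was 0.11 ± 0.06 (SE; 95% interval -0.03 to 0.24; edgeR adjusted p = 0.260), and without GSK-A1 replicate 2 it was 0.02. Its transcript has a GC content of 39.4%.

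PIK3CD (ENSG00000171608; chr1:9651732-9729114, plus strand) encodes p110-delta, which is best known from white blood cells. It stood at 3.07, 3.36 and 3.41 CPM with DMSO and 3.65, 3.37 and 3.58 CPM with GSK-A1. The groups overlapped, and the log2 fold change of 0.12 ± 0.11 (SE; 95% interval -0.11 to 0.34; edgeR adjusted p = 0.463) did not pass. The gamma chain PIK3CG, the catalytic subunit of class IB, had 0 to 2 counts per library. Of its regulators, PIK3R6 also had 0 to 2, while PIK3R5 had 61 to 104 counts and did not pass (log2 fold change 0.04; edgeR adjusted p = 0.870).

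PIK3R3 (ENSG00000117461; chr1:46040140-46133036, minus strand) encodes a class IA regulatory chain. Its p55-gamma protein has the SH2 domains that bind phosphotyrosine and the inter-SH2 stretch that holds p110, but lacks the SH3 domain of the longer p85 chains. It stood at 52.9, 51.0 and 55.6 CPM with DMSO and at 42.0, 40.4 and 39.2 CPM with GSK-A1. All 3 GSK-A1 libraries lay below all 3 DMSO libraries. The means were 53.2 ± 2.3 and 40.5 ± 1.4 CPM (SD, n = 3), and the log2 fold change was -0.39 (SE 0.05; adjusted p = 3.62e-05, edgeR). A gene on the same strand, listed as P3R3URF-PIK3R3, covered 17.4% of its exonic length and had 0 counts in each library. Of all runs of 50 bases in PIK3R3's longest mRNA, 22.4% were found in that gene's transcripts too. How reads over the shared exons were counted is not given in the sources used here.

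PIK3R1 (ENSG00000145675; chr5:68215720-68301821, plus strand) encodes p85-alpha and, from inner start sites, the shorter p55-alpha and p50-alpha chains, which a count per gene does not separate. It stood at 32.1, 31.5 and 32.7 CPM with DMSO and at 30.9, 28.6 and 28.96 CPM with GSK-A1. The groups did not overlap, yet the gap was small. The log2 fold change was -0.12 ± 0.05 (SE; 95% interval -0.22 to -0.01; edgeR adjusted p = 0.0989), which did not pass over all tested genes. It was called under upper-quartile library factors (-0.16; edgeR adjusted p = 0.0303) and after removal of the GC trend (-0.14; adjusted p = 0.0372).

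PIK3R2 (ENSG00000105647; chr19:18153118-18170540, plus strand), the gene of p85-beta, could hardly be read from this table. It had 20, 20 and 22 counts in the DMSO libraries and 30, 18 and 14 in the GSK-A1 libraries. The gene AC007192.1 on the same strand (ENSG00000268173) covered 87.2% of its exonic length, and 97.9% of all runs of 50 bases in PIK3R2's longest mRNA were found in that gene's transcripts too. AC007192.1 had only 3 to 5 counts per library, and how reads shared by both genes were counted is not given in the sources used here, so the level of p85-beta mRNA is not known from these values. The log2 fold change of 0.11 ± 0.28 (SE; 95% interval -0.48 to 0.70; edgeR adjusted p = 0.807) leaves a wide range of changes possible.

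**Figure D1:**
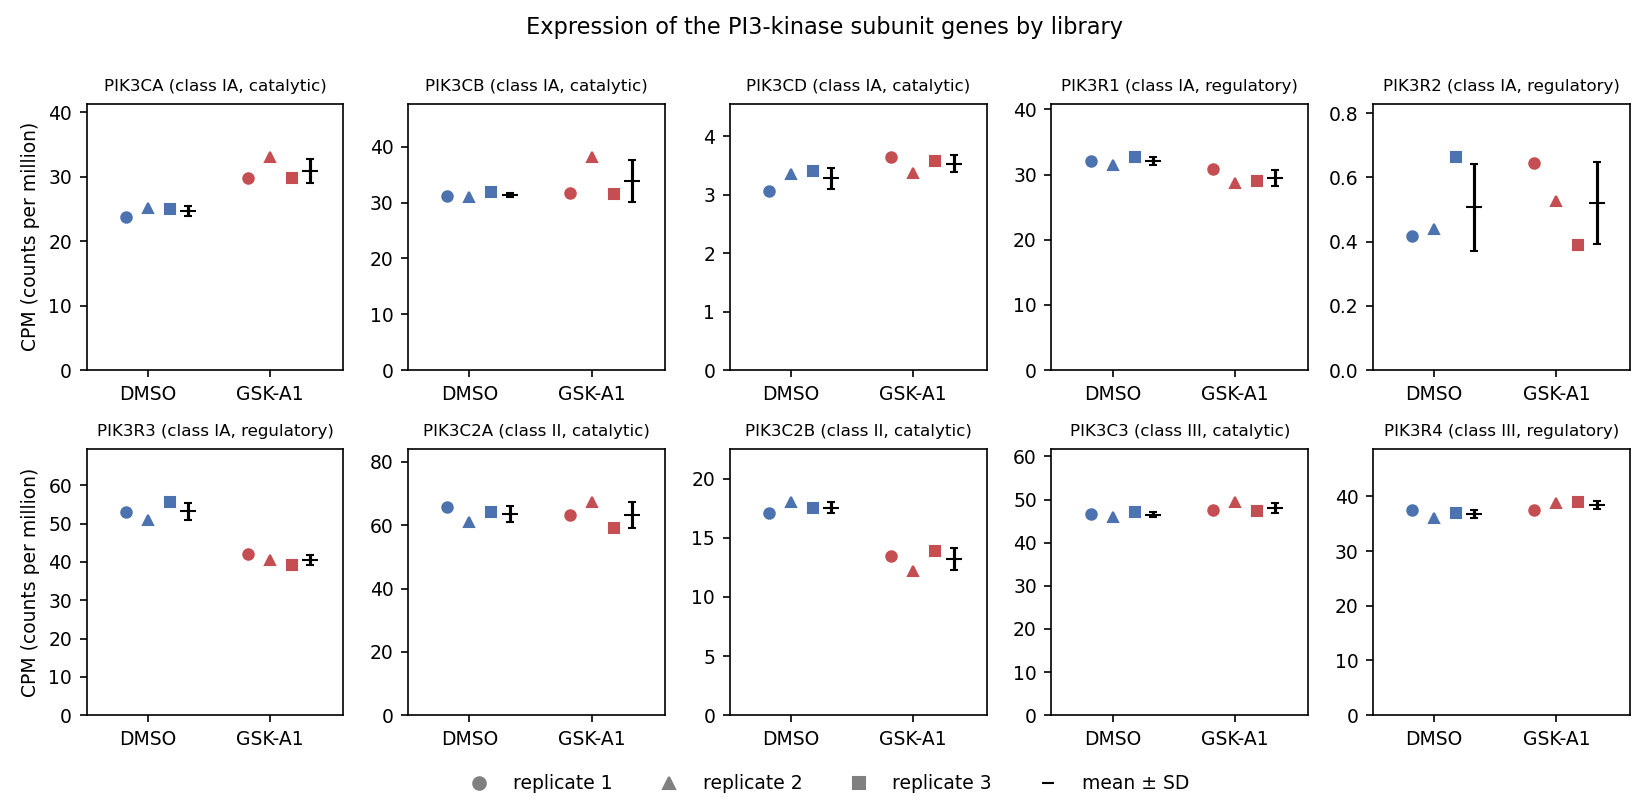
Each panel plots the CPM of 1 subunit gene, from 0, in the 3 DMSO libraries (blue) and the 3 GSK-A1 libraries (red), with the marker shape giving the replicate number and the black bar the mean ± SD. PIK3CA is higher and PIK3R3 and PIK3C2B are lower in all 3 GSK-A1 libraries, and for PIK3CB only GSK-A1 replicate 2, at 38.2 CPM, stands away from the rest.

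Class II was represented by PIK3C2A and PIK3C2B. Their products are large kinases with a C2 domain, known for roles in endocytosis and membrane traffic. PIK3C2B (ENSG00000133056; chr1:204422628-204494724, minus strand) stood at 17.1, 18.0 and 17.5 CPM with DMSO and at 13.5, 12.2 and 13.9 CPM with GSK-A1. No GSK-A1 library reached the level of a DMSO library. The means were 17.5 ± 0.47 and 13.2 ± 0.91 CPM (SD, n = 3), and the log2 fold change was -0.41 (SE 0.06; adjusted p = 3.50e-04, edgeR). GSK-A1 replicate 2 was the lowest library, and without it the log2 fold change was -0.35 (edgeR adjusted p = 7.80e-06).

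PIK3C2A (ENSG00000011405; chr11:17077730-17207983, minus strand) encodes the ubiquitous class II enzyme. It stood at 65.8, 61.0 and 64.0 CPM with DMSO and at 63.3, 67.3 and 59.2 CPM with GSK-A1. The groups overlapped. The log2 fold change was -0.0082 (SE 0.05; 95% interval -0.11 to 0.10; adjusted p = 0.927, edgeR), and its sign was positive with no low-count filter and in the fits lacking DMSO replicate 1 or GSK-A1 replicate 3. PIK3C2G, the remaining class II gene, had 0 counts in each library.

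The class III pair makes PI3P and differed little between the groups. PIK3C3 (ENSG00000078142; chr18:41955206-42087830, plus strand), the kinase VPS34, stood at 46.7, 45.9 and 47.1 CPM with DMSO and at 47.6, 49.4 and 47.3 CPM with GSK-A1. PIK3R4 (ENSG00000196455; chr3:130678935-130746829, minus strand), the regulatory pseudokinase VPS15, stood at 37.4, 36.0 and 36.9 CPM and at 37.5, 38.8 and 38.9 CPM. In both genes the GSK-A1 libraries lay above the DMSO libraries by small steps. The log2 fold changes of 0.05 ± 0.04 for PIK3C3 (SE; 95% interval -0.04 to 0.14; edgeR adjusted p = 0.449) and 0.06 ± 0.05 for PIK3R4 (SE; 95% interval -0.03 to 0.16; edgeR adjusted p = 0.341) did not pass.

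**Figure D2:**
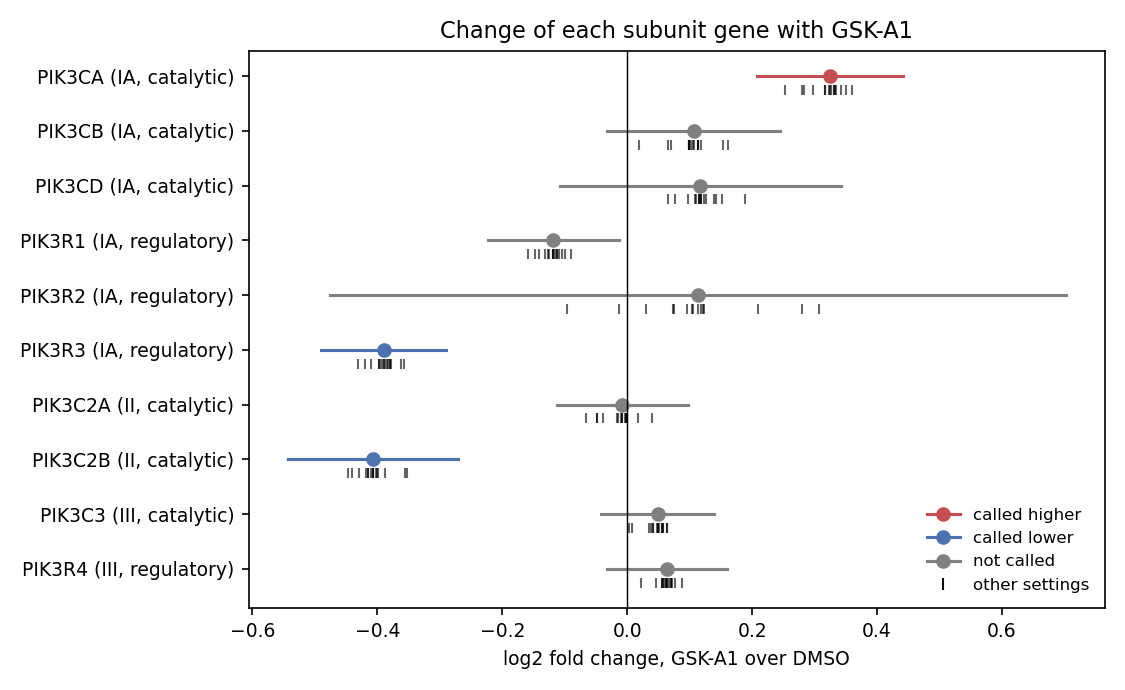
The log2 fold change of each subunit gene (GSK-A1 over DMSO, horizontal axis) is shown as a point with its 95% interval, in red where called higher, blue where called lower and grey where not called, and the ticks under each point give the value in each other setting. PIK3CA lies at 0.32, PIK3R3 at -0.39 and PIK3C2B at -0.41, and in the other settings none of these 3 changes sign, while the interval of PIK3R2 runs from -0.48 to 0.70.

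To compare levels between genes, CPM was divided by the length of the longest transcript, giving CPM per kb. Before this division PIK3C2A, at 63.6 CPM with DMSO, lay above PIK3R3, at 53.2 CPM. Union exonic lengths, with all exons of a gene merged, differed unevenly: 15198 against 9443 bases for PIK3C3, but 5376 against 5015 for PIK3R4. The order, ratio levels and shares below hold for the longest transcripts and were not recomputed with union lengths. With DMSO, PIK3R3 was the highest member at 9.48 ± 0.41 CPM per kb (SD, n = 3), followed by PIK3C2A at 7.73 ± 0.30 and PIK3R4 at 7.33 ± 0.15, whose libraries overlapped. PIK3CB (5.30 ± 0.07), PIK3C3 (4.93 ± 0.07), PIK3R1 (4.58 ± 0.08), PIK3CA (2.71 ± 0.08), PIK3C2B (2.28 ± 0.06) and PIK3CD (0.60 ± 0.03) followed, each apart from the next in all 3 libraries. With GSK-A1 the order changed only at the top, where PIK3R3, at 7.22 ± 0.25 CPM per kb, came behind PIK3C2A (7.69 ± 0.49) and PIK3R4 (7.66 ± 0.15). The libraries of PIK3R3 and PIK3C2A then overlapped. PIK3R2, at 0.126 ± 0.034 CPM per kb with DMSO, came last, with the limit on its counting given above.

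The balance of catalytic to regulatory mRNA in class IA was taken as the summed CPM per kb of PIK3CA, PIK3CB and PIK3CD over that of PIK3R1, PIK3R2 and PIK3R3. The ratio was 0.598, 0.630 and 0.593 with DMSO and 0.771, 0.937 and 0.826 with GSK-A1. Every GSK-A1 library had more catalytic mRNA per regulatory mRNA, as counted, than any DMSO library. The mean log2 ratios were -0.72 ± 0.05 (DMSO) and -0.25 ± 0.14 (GSK-A1; SD, n = 3 each), which differ by 0.47, or 1.39-fold. Without GSK-A1 replicate 2, which had the highest ratio, the difference was 0.40. The part of that library's GC pattern in the ratio was not tested. No p is given for this score, since its members were chosen with their values known. Since the level of PIK3R2 is not known, neither the level of the ratio nor its shift is known with that mRNA in full. Reads that PIK3R3 or PIK3CA may share with the overlapping genes named above bear on the ratio too. How those reads were counted is not given in the sources used here. As counted, PIK3R2 made up 0.88% ± 0.21 (DMSO) and 1.1% ± 0.23 (GSK-A1) of the regulatory sum (SD, n = 3).

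The make-up of each side was also compared. PIK3CA made up 31.5% ± 0.57 of the summed catalytic CPM per kb in the DMSO libraries and 34.9% ± 0.78 in the GSK-A1 libraries (SD, n = 3), while PIK3CB went from 61.5% ± 0.80 to 58.5% ± 1.6. As counted, with the same limit on PIK3R2, PIK3R3 made up 66.8% ± 0.43 of the regulatory sum with DMSO and 62.5% ± 0.52 with GSK-A1, and PIK3R1 went from 32.3% ± 0.59 to 36.4% ± 0.55. For each of these 4 shares the 3 GSK-A1 libraries lay apart from the 3 DMSO libraries. Shares within a side add up to the whole, so these are not 4 separate observations. The mean level of PIK3CB was 5.30 CPM per kb with DMSO and 5.71 with GSK-A1, although its share fell. That of PIK3R1 was 4.58 with DMSO and 4.21 with GSK-A1, although its share rose. Of the 4 pairs of single class IA subunits compared, the widest shift was for PIK3CA over PIK3R3, whose ratio of CPM per kb was 0.277, 0.305 and 0.277 with DMSO and 0.438, 0.505 and 0.470 with GSK-A1. This pair sets the class IA gene called higher over the one called lower, so its shift restates those calls.

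In class II the ratio of PIK3C2A to PIK3C2B was 3.60, 3.16 and 3.41 with DMSO and 4.38, 5.16 and 3.97 with GSK-A1, without overlap. The log2 difference was 0.40, and 0.30 without GSK-A1 replicate 2. With PIK3C2A at a log2 fold change of -0.0082 and PIK3C2B at -0.41, this shift restates the PIK3C2B call. In class III the ratio of PIK3C3 to PIK3R4 was 0.662, 0.677 and 0.677 with DMSO and 0.674, 0.676 and 0.645 with GSK-A1. These groups overlapped, and the log2 difference of -0.02 was smaller than the SD of either group (0.02 and 0.04). The class III pair stayed within its replicate spread while the class IA and class II ratios lay apart between the groups. The difference between these classes was not tested. The class IA sums hold the called genes PIK3CA and PIK3R3, so the class IA shift is not separate from those calls.

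**Figure D3:**
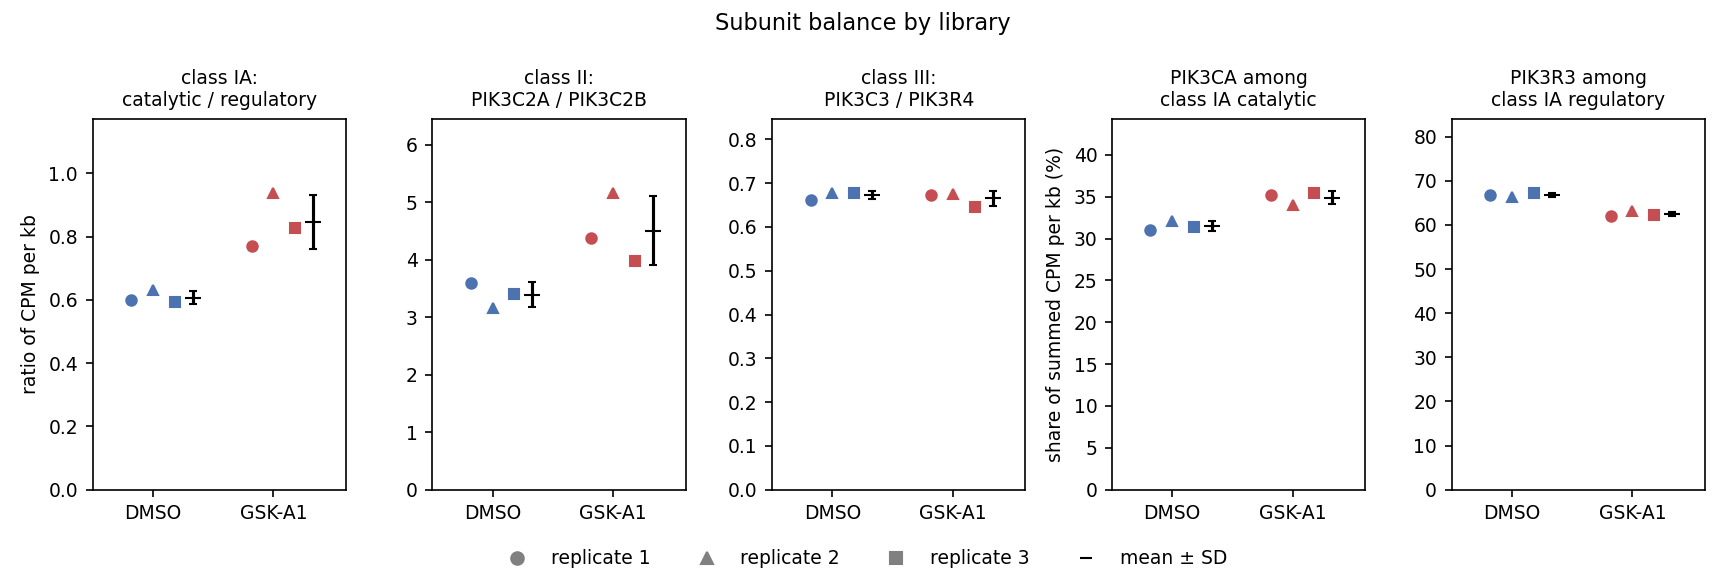
The first 3 panels plot, from 0, ratios of CPM per kb in each library (catalytic over regulatory sums in class IA, PIK3C2A over PIK3C2B, PIK3C3 over PIK3R4), and the last 2 plot the share of PIK3CA in the catalytic sum and of PIK3R3 in the regulatory sum, with shapes for replicates and black bars for mean ± SD. The class IA ratio lies at 0.593 to 0.630 with DMSO and at 0.771 to 0.937 with GSK-A1, whereas the class III ratio overlaps between the groups.

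The other genes of the pathway were read from 4 lists. Counts of calls in them are to be read against all tested genes, where the 3835 calls became 2163, 2213 and 2206 without DMSO replicate 1, 2 and 3 and 4890 without GSK-A1 replicate 2. Upstream, the list of receptors and adaptors around class IA enzymes had 19 tested members, of which 7 rose and 1 fell. That was 42.1% called, against 22.9% of all tested genes, with a median log2 fold change of 0.08. The list also holds genes that do not only recruit the kinases, such as the ubiquitin ligase CBL, which rose, and the inhibitor PIK3IP1. GAB2, a docking protein that binds p85, stood at 20.9, 21.3 and 21.9 CPM with DMSO and at 32.1, 28.0 and 31.0 CPM with GSK-A1 (log2 fold change 0.51 ± 0.06, SE; edgeR adjusted p = 1.69e-05). IRS4, an insulin receptor substrate that HEK293 cells make in large amounts, fell from 2159 ± 93 to 1863 ± 64 CPM (SD, n = 3; log2 fold change -0.21 ± 0.04; edgeR adjusted p = 5.46e-04). CBL, a ubiquitin ligase of activated receptors, rose by 0.26 ± 0.05 and IGF1R, the receptor of insulin-like growth factor, by 0.20 ± 0.04 on the log2 scale. Leaving out DMSO replicate 1 left 4 of these calls by number, and leaving out DMSO replicate 2 or 3 left 5.

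The list of phosphatases of inositol lipids had 21 tested members and 2 calls, 1 higher and 1 lower. That was 9.52%, against 22.9% of all tested genes, with a median log2 fold change of 0.05, against -0.01. Not all of its members, INPP5F included, act mainly on the lipid products of PI3-kinases, so its calls do not measure the removal of those products. This list also holds INPP5A, whose substrates are soluble inositol phosphates. INPP5D, the gene of SHIP1, which turns PIP3 into PI(3,4)P2, fell from 2.38 ± 0.34 to 0.78 ± 0.10 CPM (SD, n = 3; log2 fold change -1.56 ± 0.18, SE; edgeR adjusted p = 1.83e-05). INPP5F rose by 0.19 ± 0.05 (edgeR adjusted p = 0.00815), a call lost without DMSO replicate 1. Leaving out GSK-A1 replicate 2 gave 4 calls in this list, and leaving out DMSO replicate 1 gave 1.

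Downstream kinases and their regulators had 23 tested members, of which 6 rose and 4 fell. That was 43.5% called, against 22.9% of all tested genes, with a median log2 fold change of 0.02, against -0.01. RICTOR, which defines the mTOR complex that phosphorylates AKT, rose from 41.1 ± 1.7 to 50.9 ± 1.8 CPM (SD, n = 3; log2 fold change 0.31 ± 0.05, SE; edgeR adjusted p = 2.96e-04). The S6 kinase gene RPS6KB1 rose by 0.20 ± 0.04 (edgeR adjusted p = 0.00333), and MLST8, a subunit of both mTOR complexes, fell by 0.22 on the log2 scale (edgeR adjusted p = 8.77e-04). AKT1 (-0.05 ± 0.04, SE; 95% interval -0.13 to 0.03) and AKT2 (-0.13 ± 0.07; -0.30 to 0.03) did not pass (edgeR adjusted p = 0.362 and 0.232). AKT2 was at 181 CPM in GSK-A1 replicate 2 and at 217 to 231 CPM in the other libraries. The 10 calls became 6 without DMSO replicate 3.

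Partners of the class III pair and readers of PI3P had 29 tested members, of which 5 rose and 0 fell (17.2% called, against 22.9% of all tested genes), with a median of 0.08. VMP1, a membrane protein of early autophagy, rose by 0.23 ± 0.04 (edgeR adjusted p = 0.00137) and BCL2, which binds the class III partner beclin 1, by 0.22 ± 0.06 (edgeR adjusted p = 0.0105). WIPI1, which binds PI3P on forming autophagosomes, rose by 0.40 ± 0.11 (edgeR adjusted p = 0.0173), and the early endosome GTPase RAB5B by 0.12 ± 0.04 (edgeR adjusted p = 0.0219). BECN1, the gene of beclin 1, averaged 65.4 ± 1.1 CPM (DMSO) and 69.6 ± 2.3 CPM (GSK-A1) and did not pass (0.09 ± 0.04, SE; edgeR adjusted p = 0.130). The BCL2 call was lost without DMSO replicate 2, those of WIPI1 and RAB5B without DMSO replicate 1 or 3, that of WIPI1 also without GSK-A1 replicate 1, and that of RAB5B also without GSK-A1 replicate 3 and under upper-quartile factors. The 5 calls became 2 without DMSO replicate 1 or 3, 3 without DMSO replicate 2, and they became 9 when GSK-A1 replicate 2 was left out, moving in the same direction as the calls over all genes.

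**Figure D4:**
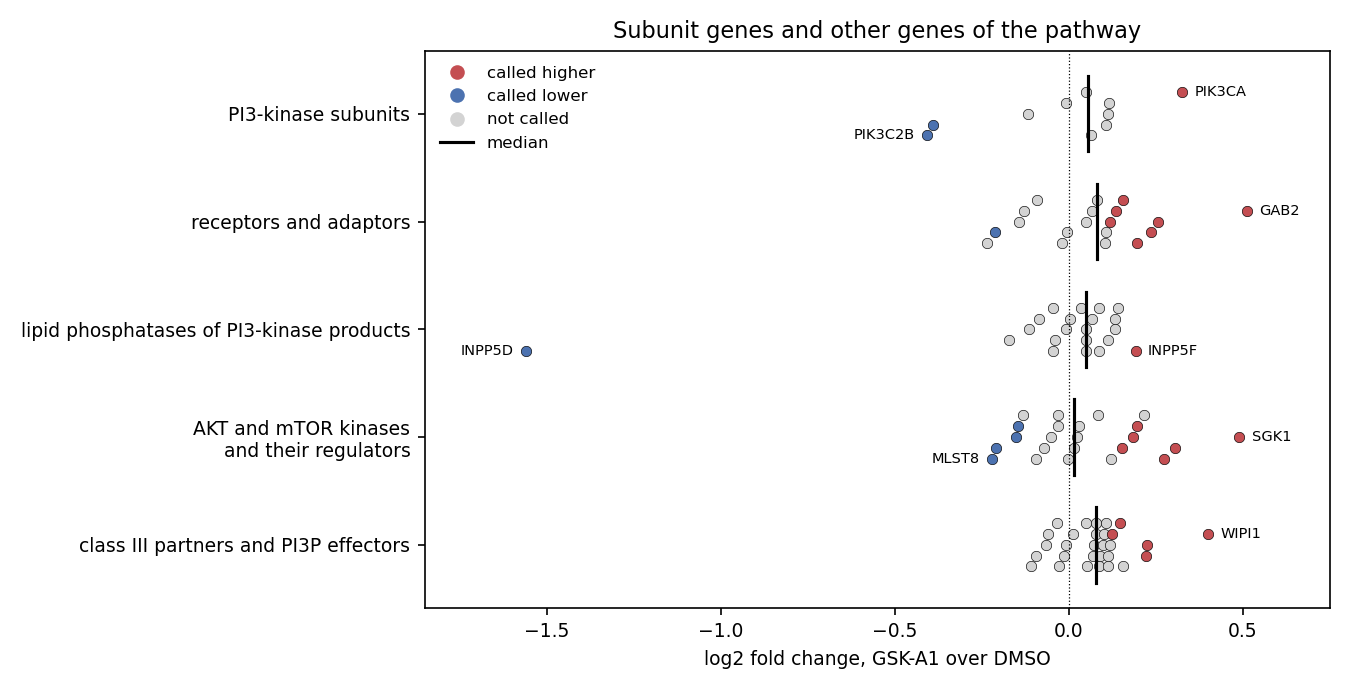
Each point is the log2 fold change (GSK-A1 over DMSO) of 1 tested gene, in the row of its list, red where called higher, blue where called lower and grey where not called, with a black line at the list's median. Vertical scatter within a row has no meaning. The medians lie between 0.02 and 0.08 in all 5 rows, and INPP5D, at -1.56, is the gene farthest from 0.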

How the data were processed

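The authors deposited whole-number counts for 63140 genes in 6 libraries, without normalization. Per the labels' protocols, total RNA was made into TruSeq stranded libraries and sequenced on an Illumina HiSeq. The submitters' processing notes name, without role or order, cutadapt 5.1, STAR 2.7.11b, featureCounts, Subread 2.1.1, DESeq2 1.38.0 and GRCh38.p13. The annotation release, the strand setting and the treatment of reads shared by overlapping genes are not given in the sources used here.

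Genes were kept by filterByExpr (minimum count 10, minimum total 15), leaving 16754, and tested with edgeR 4.0.16 in R 4.3.3 (TMM factors, robust quasi-likelihood F test, Benjamini-Hochberg adjustment over all tested genes, called at an adjusted p under 0.05). The code was tested on simulated counts. Lengths, GC content and overlaps came from GENCODE 29, and promoters from RefSeq. Ratios are descriptions without a test. From each list up to 4 called genes with the smallest p were named, with INPP5D, BECN1, AKT1 and AKT2; some genes that the rule names are not reported here. Members, lists and motifs were chosen with earlier results of these data known. In the edgeR fits counting error enters through the count model. For the SDs of CPM, ratios and shares it is covered only through the replicates. Alternatives were other library factors, filters, a stricter threshold, DESeq2 1.42.0, limma-voom (limma 3.58.1), a replicate block, GC correction and leaving out each library.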

Additional observations from a re-analysis of the deposited data

How the results depend on the processing

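The rise of PIK3CA and the falls of PIK3R3 and PIK3C2B were called in all 16 other settings, with log2 fold changes of 0.25 to 0.36, -0.43 to -0.36 and -0.45 to -0.35, so 3 subunit genes or, with PIK3R1 added, 4 were called. Signs turned in 2 genes that were never called. Leaving out 1 library gave -0.0969 (GSK-A1 replicate 1 out), -0.0127 (DMSO replicate 1 out) and up to 0.308 for PIK3R2, and -0.0477 to 0.0395 for PIK3C2A, with 0.0178 when DMSO replicate 1 was out. PIK3C2A was at 0.00044 without a low-count filter. PIK3R2 was not tested at a mean of at least 1 CPM. At an adjusted p under 0.01 the calls fell to 1871 of all genes, 5 receptors and adaptors and 1 class III partner. With the GC trend removed there were 4 lipid phosphatases and 8 class III partners. Leaving out 1 library gave 2163 to 4890 calls over all genes, 4 to 9 receptors and adaptors, 1 to 4 phosphatases, 6 to 11 downstream kinases and 2 to 9 class III partners. The cause was not tested. The ratios were recomputed only with other length scaling, with each library left out and, for class IA, without PIK3R2. Neither the GC correction nor the other fits were applied to them. Over these settings the log2 difference ran from 0.40 to 0.54 for the class IA ratio, from 0.30 to 0.49 for class II and from -0.03 to 0.0058 for class III. Each ratio moved in some of these settings by more than the SD of the DMSO libraries. Leaving PIK3R2 out of the class IA sum gave 0.48, but as counted it was too small a share to move the ratio. Union exonic lengths and leaving PIK3R2 out were chosen after seeing the data.

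The values do not settle whether replicate numbers pair the libraries. Deviations of same-numbered libraries correlated by 0.01, 0.02 and 0.03, and those of other pairs by -0.03 to 0.01. GSK-A1 replicates 2 and 3 correlated most with their own number, while GSK-A1 replicate 1 correlated as well with DMSO replicate 2. With the replicate number as a block, 4127 genes (3835 without it), 3 subunit genes and 4 lipid phosphatases were called. PIK3R2 had the fewest counts of the 10 genes (14 to 30), and whether depth or the counting of shared reads limits it was not tested.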

Other observations

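Other called genes of the lists, chosen after their values were seen, were IRS2, an insulin receptor substrate, which rose from 25.6 ± 0.99 CPM to 30.3 ± 1.9 CPM (SD, n = 3), by 0.24 ± 0.06 on the log2 scale (SE; edgeR adjusted p = 0.00707), and SGK1, a kinase related to AKT that the RICTOR complex activates, which rose by 0.49 ± 0.11 (edgeR adjusted p = 0.00394). MTOR itself fell from 152 ± 3.3 CPM to 137 ± 4.4 CPM (SD, n = 3), by 0.15 on the log2 scale (SE 0.04; adjusted p = 0.00955, edgeR), a call lost without DMSO replicate 1 or 3. The IRS2 call was lost without DMSO replicate 1 (edgeR adjusted p = 0.0534).

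The antisense gene PIK3CD-AS2, also chosen after its values were seen, stood at a mean of 3.84 CPM with DMSO and 3.23 CPM with GSK-A1 without overlap between the groups, and did not pass (log2 fold change -0.25 ± 0.11, SE; edgeR adjusted p = 0.102). PIK3IP1, an inhibitor that binds p110 and was chosen in the same way, stood at 2.57 ± 0.32 and 2.18 ± 0.16 CPM (SD, n = 3) and did not pass (-0.23 ± 0.13, SE; edgeR adjusted p = 0.222).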
